A study of Rattus norvegicus with 24 samples.

Results

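In rat kidney, 10 genes were listed by the study beside CpGs inside their own introns or exons: Coch, Cntn1, Dmp1, Fuca2, Camk2b, Abca17, Bdkrb2, Dnm3, Galnt17 and Cacna1a. The count table lists them, in this order, as ENSRNOG00000005286, ENSRNOG00000004438, ENSRNOG00000002167, ENSRNOG00000015551, ENSRNOG00000052080, ENSRNOG00000039656, ENSRNOG00000047300, ENSRNOG00000026490, ENSRNOG00000024435 and ENSRNOG00000052707. They are 10 of 32883 genes in the count table, and all 10 were among the 14212 genes with enough reads to be tested. A total of 16 CpGs was listed for them, and 9 of the 16 are among the 404069 CpGs that had at least 10 reads in every rat. The genes were chosen from measured values. Differences between the strains in non-pregnant rats chose every gene but Cacna1a, which was chosen by the difference between pregnant and non-pregnant CD rats. Abca17 and Coch were also paired with CpGs in the strain comparison of pregnant rats.

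Kidney cross-sections holding cortex and medulla came from 12 female rats of about 2 months, 3 in each of 4 groups. The CD rat is the outbred Sprague Dawley stock, used here for healthy pregnancy, and BN is the inbred Brown Norway strain, used as a model of pregnancy with preeclampsia-like features. Each was examined non-pregnant (CD-NP and BN-NP) and on day 18 of pregnancy (CD-P18 and BN-P18). No transgene, deletion or drug was used, and strain differences therefore include every inherited difference between the stock and the strain. RNA and DNA of the same rat were read by RNA-seq, with 8274159 to 11879451 reads on genes per library, and by reduced representation bisulfite sequencing (RRBS), with 1090766 to 1770580 CpGs at 10 reads or more per library. RNA levels are given as CPM, the reads of a gene scaled to a common library size, and methylation as the percent of reads over a CpG that kept a C.

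Bisulfite leaves a methylated C in place and turns an unmethylated one into a base read as T. Methylation near a gene's start often accompanies low transcription, while CpGs inside gene bodies are commonly methylated in active genes too. The 10 genes have unrelated roles. Coch encodes cochlin, a secreted protein of the extracellular matrix best known from the inner ear, Cntn1 a contactin that anchors axons to glia, and Dmp1 a phosphoprotein of bone and dentin matrix. Fuca2 encodes a secreted fucosidase, Galnt17 a member of the family that starts O-linked glycosylation, and Abca17 a member of the lipid-transporting ABCA family. Bdkrb2 encodes the bradykinin B2 receptor, through which kinins widen vessels and raise sodium excretion. Camk2b encodes a subunit of calcium and calmodulin-dependent kinase II, Dnm3 a dynamin that pinches off membrane vesicles, and Cacna1a the pore of P/Q-type calcium channels.

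According to the annotation in the study's lists, 13 of the 16 CpGs are intronic and 3 are exonic. All positions are on Rnor_6.0, the assembly of the deposited files. The 3 exonic CpGs are those of Coch at position 72362042 of chromosome 6 (plus strand), of Cntn1 at 133553076 of chromosome 7 (plus strand) and of Dmp1 at 6891998 of chromosome 14 (minus strand). Abca17 has 4 intronic CpGs on the minus strand of chromosome 10, at 13681746, 13689454, 13698243 and 13716648. Camk2b has 2 on the minus strand of chromosome 14, at 86256227 and 86295266. Galnt17 has 3 on the plus strand of chromosome 12, at 28670846, 28713257 and 28938177. The others are at 129410797 of chromosome 6 for Bdkrb2 (plus strand), at 80298328 of chromosome 13 for Dnm3 (minus strand), at 7673364 of chromosome 1 for Fuca2 (plus strand) and at 25605689 of chromosome 19 for Cacna1a (plus strand).

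Sequence around the listed CpGs was not used here, and the RefSeq promoter windows stand in to show how CpG content differs among the gene starts. RefSeq entries on GRCr8 were found for 8 of the 10 genes. In the 250 bases before the start, the windows held from 3 CG pairs in Cntn1 to 47 in Camk2b, against a median of 5 over 33469 promoters. The 3 genes shown had the lowest BN to CD ratios of RNA. CG pairs are in capitals, and the windows are chr6:74766297-74766546 (plus strand) for Coch with 27 pairs, chr7:125252060-125252309 (plus strand) for Cntn1 with 3 and chr14:5840085-5840334 (minus strand) for Dmp1 with 6. RRBS cuts at CCGG, a motif that reads the same on both strands. The motif was in 46.2% of all windows and occurred 2 times in that of Coch and in neither of the others.
Coch: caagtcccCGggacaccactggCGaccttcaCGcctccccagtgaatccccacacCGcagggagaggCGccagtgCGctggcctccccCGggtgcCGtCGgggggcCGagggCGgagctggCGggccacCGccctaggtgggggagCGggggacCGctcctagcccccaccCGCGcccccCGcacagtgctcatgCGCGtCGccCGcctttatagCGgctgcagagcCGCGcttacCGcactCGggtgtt
Cntn1: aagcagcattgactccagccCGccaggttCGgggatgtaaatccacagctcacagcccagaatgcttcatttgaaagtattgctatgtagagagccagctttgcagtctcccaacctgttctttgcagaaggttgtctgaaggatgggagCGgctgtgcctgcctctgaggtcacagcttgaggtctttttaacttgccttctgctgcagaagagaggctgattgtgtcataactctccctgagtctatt
Dmp1: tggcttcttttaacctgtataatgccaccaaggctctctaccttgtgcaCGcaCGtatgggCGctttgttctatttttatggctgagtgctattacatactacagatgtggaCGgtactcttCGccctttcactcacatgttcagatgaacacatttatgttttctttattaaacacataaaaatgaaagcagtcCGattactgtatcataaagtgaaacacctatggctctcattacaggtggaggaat

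Among non-pregnant rats, 5 of the 9 genes that this comparison chose were lower in BN than in CD kidneys. The values are a description, since the same rats chose the genes. Of all genes tested, 8.38% passed the threshold, an adjusted p under 0.1 in edgeR's quasi-likelihood test and a log2 fold change beyond 0.32 in size, 4.55% as lower and 3.83% as higher in BN. The 9 genes did not overlap between the groups, as was so for 24.4% of all genes. Coch differed most, with 14.3, 19.0 and 19.3 CPM in the CD-NP rats and 0.217, 0.487 and 0.948 CPM in the BN-NP rats. The latter rest on 2 to 9 reads per library. Its log2 fold change was -4.94 ± 0.31 (SE), a 30.8-fold lower level. Cntn1 stood at 5.59 to 11.5 CPM in CD-NP and 1.10 to 1.79 CPM in BN-NP, and its log2 fold change was -2.58 ± 0.34. Dmp1 was low in both strains, at 1.64 to 2.95 CPM against 0.316 to 0.435 CPM, the latter on 3 or 4 reads, with a log2 fold change of -2.59 ± 0.44. Fuca2, the most precisely measured of the 5, fell from 28.7 to 31.9 CPM in CD-NP to 11.2 to 15.3 CPM in BN-NP, a log2 fold change of -1.21 ± 0.14. Camk2b was at 6.33 to 9.43 CPM in CD-NP and 2.42 to 4.02 CPM in BN-NP, a log2 fold change of -1.30 ± 0.26. Rbfox3, a neuron marker and the only one of 5 that could be named, was lower in BN as well, at 2.30 to 7.17 CPM in the 6 CD rats and 0.316 to 0.652 CPM in the 6 BN rats, and its part in the levels of Cntn1 and Camk2b was not tested. In bulk kidney, fewer cells of a type and less RNA per cell cannot be told apart.

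The other 4 genes were higher in BN-NP than in CD-NP kidneys. Abca17 had 0.580, 0.633 and 0 CPM in CD-NP, which is 6, 6 and 0 reads, and 3.48, 2.43 and 1.90 CPM in BN-NP, for a log2 fold change of 2.62 ± 0.55. Bdkrb2 had 2.90 to 4.82 CPM in CD-NP and 8.15 to 12.4 CPM in BN-NP, a log2 fold change of 1.43 ± 0.33. Galnt17 had 1 to 5 reads per library in CD-NP, or 0.110 to 0.484 CPM, and 1.05 to 2.17 CPM in BN-NP, a log2 fold change of 2.52 ± 0.51. Dnm3 differed least, with 15.3 to 17.1 CPM against 23.1 to 25.8 CPM and a log2 fold change of 0.61 ± 0.20. Its adjusted p of 0.0917 was nearest to the threshold, and leaving out any of 10 of the 12 libraries raised it to between 0.102 and 0.207. Cacna1a, which this comparison did not choose, had 41.4 to 53.0 CPM in CD-NP and 43.4 to 46.3 CPM in BN-NP, and the groups overlapped.

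**Figure D1:**
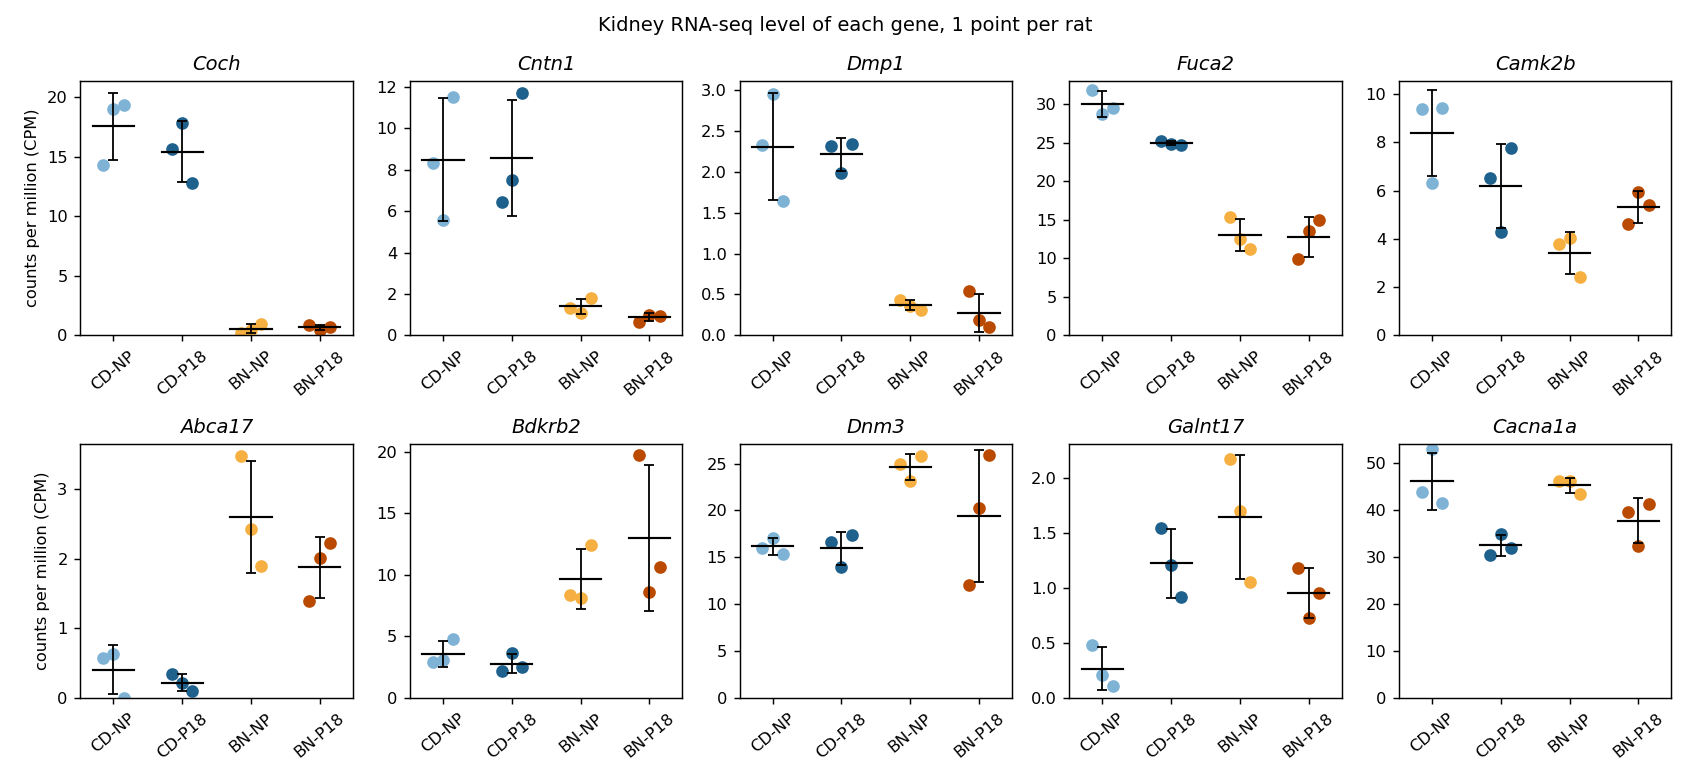
RNA level of the 10 genes in CPM (y axis, from 0), with 1 point per rat in each of the 4 groups (x axis); horizontal lines are means and bars the SD of 3 rats. Coch, Cntn1, Dmp1 and Fuca2 were lower in all 6 BN rats than in any CD rat, and Abca17 and Bdkrb2 higher. The non-pregnant rats chose these genes, and the share of all genes separated in this way was not computed.

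Pregnant rats gave a second look at the strain difference in animals that had not chosen 7 of these genes. At P18, 4 of the 7 passed the threshold, against 9.6% of all genes tested (4.9% higher and 4.7% lower in BN), and all 4 kept the direction seen in non-pregnant rats. The groups did not overlap for these 4, nor did they for 26.5% of all genes. Bdkrb2 was at 2.23, 3.64 and 2.55 CPM in CD-P18 and at 19.8, 8.57 and 10.6 CPM in BN-P18. The log2 fold change was 2.22 ± 0.33, with an adjusted p of 0.00116 in edgeR's quasi-likelihood test. Cntn1 was at 6.43 to 11.7 CPM in CD-P18 and 0.644 to 1.0 CPM in BN-P18, a log2 fold change of -3.27 ± 0.36 with an adjusted p of 0.000128. Dmp1 was at 1.98 to 2.34 CPM against 0.106 to 0.537 CPM, on 1 to 5 reads in the BN-P18 libraries. Its log2 fold change was -2.98 ± 0.45 with an adjusted p of 0.00124 in the same test. Dmp1 had enough reads to be tested only through the CD rats, where it is higher, so its call is not independent of that filter. Fuca2 was at 24.8 to 25.2 CPM against 9.88 to 15 CPM, a log2 fold change of -0.96 ± 0.14 with an adjusted p of 0.000988. None of these 4 calls was lost when any library was left out.

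The 3 other genes were not distinguishable between the strains at P18. Camk2b had 4.30 to 7.75 CPM in CD-P18 and 4.62 to 5.93 CPM in BN-P18, with a log2 fold change of -0.22 ± 0.25 and an adjusted p of 0.673 in edgeR's quasi-likelihood test. Galnt17 had 0.917 to 1.54 CPM against 0.729 to 1.18 CPM, a log2 fold change of -0.38 ± 0.42 with an adjusted p of 0.666. Dnm3 had 14 to 17.3 CPM in CD-P18, while the BN-P18 rats were spread over 12, 20.2 and 25.9 CPM. Its log2 fold change was 0.28 ± 0.20 with an adjusted p of 0.468, and without BN-P18 rat 1, the lowest, it was 0.52 with an adjusted p of 0.0349. For Abca17 and Coch, which were also listed at P18, the values are again a description. Coch was at 12.7 to 17.9 CPM in CD-P18 and 0.456 to 0.859 CPM in BN-P18, a log2 fold change of -4.48 ± 0.29, and Abca17 was at 0.102 to 0.343 CPM against 1.40 to 2.23 CPM, a log2 fold change of 2.97 ± 0.62. Cacna1a overlapped between the strains, with a log2 fold change of 0.21 ± 0.11 and an adjusted p of 0.289, but its CD-P18 rats had chosen it.

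**Figure D2:**
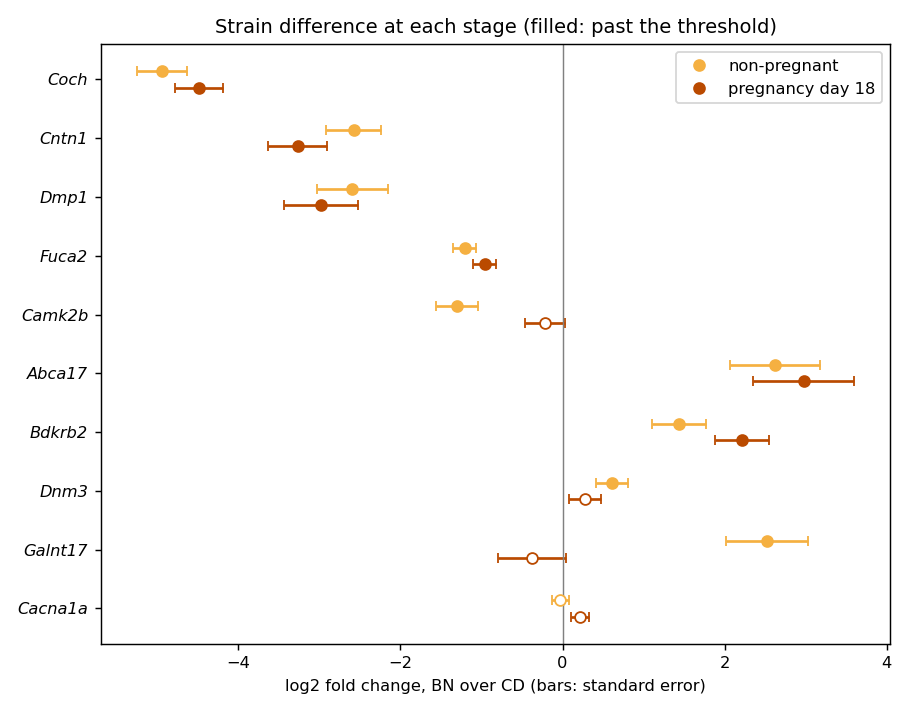
Log2 fold change of BN over CD (x axis) for each gene (y axis) in non-pregnant and in day 18 rats, with the standard error as bars and filled points past the threshold. Camk2b, Dnm3 and Galnt17 passed the threshold in the non-pregnant rats that chose them and not at day 18.

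Pregnancy moved few of these genes. In CD rats, 2 of the 10 passed the threshold, against 4.71% of all genes, and 1 of them is Cacna1a, chosen by this comparison. Cacna1a fell from 43.9, 53.0 and 41.4 CPM in CD-NP to 30.5, 34.9 and 32.0 CPM in CD-P18, a log2 fold change of -0.51 ± 0.11. The groups did not overlap, as was so for 21.5% of all genes. Leaving out CD-NP rat 2, CD-P18 rat 1 or CD-P18 rat 3 raised its adjusted p to between 0.101 and 0.116. Galnt17 rose from 0.484, 0.211 and 0.110 CPM to 1.54, 1.21 and 0.917 CPM, which is 5, 2 and 1 reads against 18, 11 and 9. Its log2 fold change was 2.11 ± 0.52 with an adjusted p of 0.0475 in edgeR's quasi-likelihood test. The CD-NP rats are those that chose Galnt17 as low, so this rise is not independent of the choice. Its call was lost without CD-NP rat 2, CD-NP rat 3 or CD-P18 rat 1, where the adjusted p was 0.143 to 0.161. The other 8 genes did not pass, with adjusted p of 0.333 or more.

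In BN rats, none of the 10 genes passed in edgeR's quasi-likelihood test, against 1.4% of all genes, and DESeq2 likewise called 0. At an unadjusted p under 0.05 there were 2 of the 10, and 1454 of all 14212 genes. Camk2b was at 3.81, 4.02 and 2.42 CPM in BN-NP and 4.62, 5.93 and 5.42 CPM in BN-P18, with a log2 fold change of 0.65 ± 0.27 and an adjusted p of 0.409. Cacna1a was at 43.4 to 46.3 CPM in BN-NP and 32.3 to 41.3 CPM in BN-P18, with a log2 fold change of -0.27 ± 0.11 and an adjusted p of 0.403. The lower level of this channel gene at P18 thus had the same sign in both strains, and the difference between the strains' changes was 0.24 ± 0.16 on the log2 scale with an adjusted p of 0.589.

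The pregnancy change differed between the strains for 1 of the 10 genes, against 0.943% of all genes. For Galnt17 the change in BN minus that in CD was -2.90 ± 0.67 on the log2 scale, with an adjusted p of 0.0925 in edgeR's quasi-likelihood test. It too rests on the CD-NP and BN-NP rats that chose the gene, and the call was lost when any of 10 of the 12 libraries was left out, with an adjusted p of 0.104 to 0.226. For Camk2b the difference was 1.08 ± 0.36 with an adjusted p of 0.232, and for Bdkrb2 it was 0.78 ± 0.48 with an adjusted p of 0.554.

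The listed CpGs fell into several patterns over the 12 rats, which the plot of methylation levels by rat shows. In these reads a T in the DNA and a converted C cannot be told apart, so a level of 0 may be either. At 4 intronic CpGs the CD rats together had 1 methylated read. For Dnm3 none of 31, 18, 19, 26, 30 and 34 reads in the 6 CD rats was methylated, and a count of 0 allows 8.82% to 16.7% per rat. The BN rats were at 89.1%, 93.5% and 97.2% in BN-NP and at 96.4%, 84.4% and 96.0% in BN-P18. At Abca17 position 13689454, 5 CD rats had 0 of 10 to 17 reads methylated and CD-NP rat 3 had no reads listed, while BN rats stood between 90.9% and 100%. At position 13698243 the CD rats had 1 methylated read among 5 to 26 reads per rat, whereas BN rats were at 92.9% to 100%. At position 13716648 the 5 CD rats with reads listed were again at 0, on 7 to 18 reads, but the BN rats were only partly methylated, from 30% to 70.6%.

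Coch, Fuca2, Bdkrb2 and the second Camk2b CpG were almost fully methylated in BN rats and varied between CD rats. The exonic CpG of Coch had 2.22%, 50% and 64.7% in the CD-NP rats, on 45, 22 and 17 reads, and 0 of 42, 38 and 46 reads in the CD-P18 rats, which allows up to 7.14%, 7.89% and 6.52%. In BN rats it was at 92.9% to 100%. For Fuca2 the CD rats were at 50%, 40% and 41.7% in NP and at 0%, 44.4% and 59.1% at P18, the 0 being 0 of 26 reads in CD-P18 rat 1, which allows up to 11.5%, against 88.9% to 100% in BN. Bdkrb2 was at 52.8%, 37.5% and 0% in CD-NP and at 10%, 50% and 62.1% in CD-P18. Its BN-NP rats were at 94.7% to 100%, and the BN-P18 rats had only 7 to 9 reads, all methylated. At Camk2b position 86295266 the CD rats ranged from 21.1% to 100%, and the 5 BN rats with reads were at 94.7% or above. At these 4 CpGs the spread over all CD rats was wide, and that over the BN rats, which lay near 100%, was narrow. Fuca2 was no wider in CD-NP than in BN-NP, with SDs of 5.36 and 5.69 points. At Camk2b position 86295266 the BN-P18 rats had 0 to 6 reads.

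**Figure D3:**
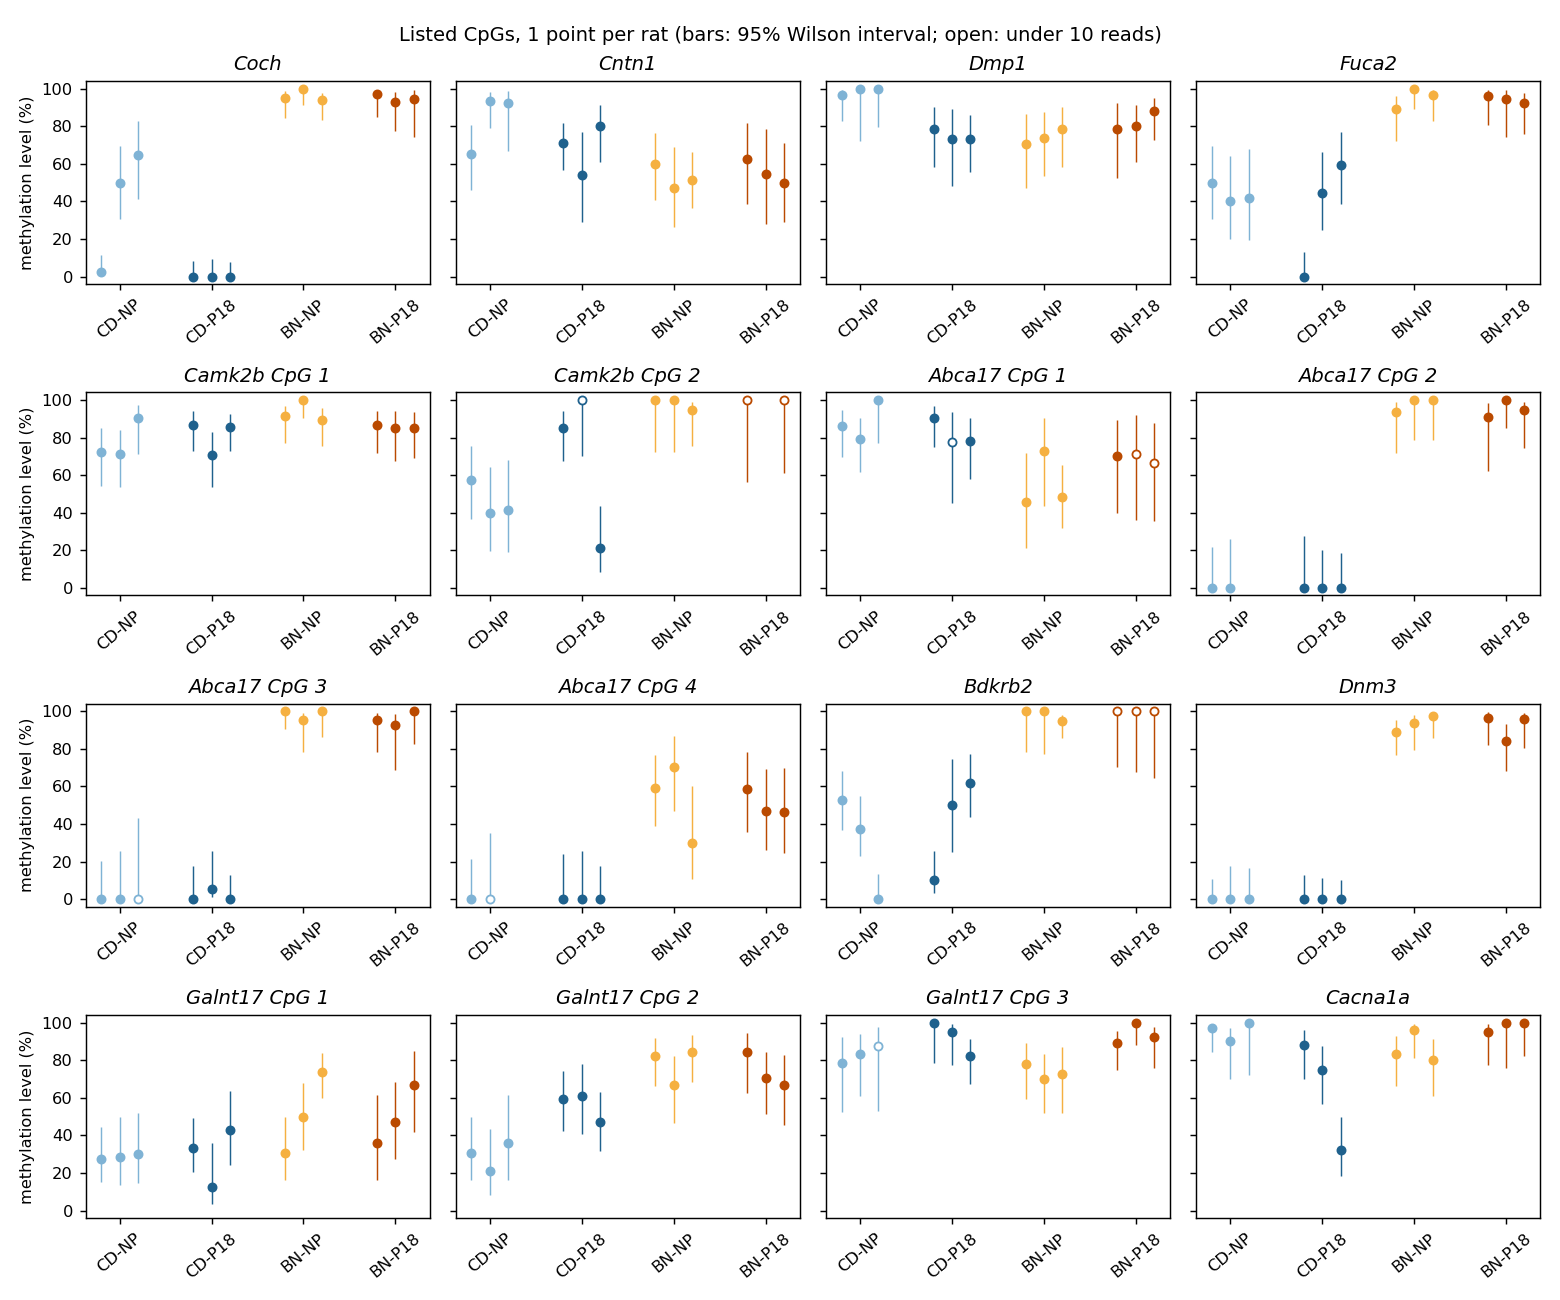
Methylation level in percent (y axis, 0 to 100) of the 16 listed CpGs, with 1 point per rat by group (x axis), 95% Wilson intervals as bars and open points under 10 reads; CpGs of a gene are numbered by position. Dnm3 and Abca17 CpGs 2, 3 and 4 lie near 0 in all CD rats with reads, while Coch, Fuca2 and Bdkrb2 scatter between CD rats and lie near 100 in BN.

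The remaining CpGs were partly methylated in many rats of both strains or differed in few rats. On its listed strand, Galnt17 position 28713257 was at 30.8%, 21.1% and 35.7% in CD-NP and at 59.4%, 60.9% and 47.1% in CD-P18. The 6 BN rats were at 66.7% to 84.4%, and the opposite strand did not show such separate steps. Galnt17 position 28670846 ranged over 12.5% to 42.9% in CD and 30.8% to 73.5% in BN, and position 28938177, listed for pregnancy in BN, over 70% to 77.8% in BN-NP and 88.9% to 100% in BN-P18. The exonic CpG of Dmp1 was at 96.6%, 100% and 100% in CD-NP and lower in every other rat, between 70.6% and 87.9%. Cntn1 was at 65.4%, 93.5% and 92.3% in CD-NP, 53.8% to 80% in CD-P18 and 47.1% to 62.5% in BN. The first CpGs of Camk2b and Abca17 ranged over 70.6% to 100% and 45.5% to 100%. Cacna1a was at 75.0% to 100% in 11 rats and at 32.3% (10 of 31 reads) in CD-P18 rat 3.

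The CpGs were tested by logistic regression on the reads of each rat, with a moderated dispersion. Only 9 of the 16 CpGs had 10 reads in every rat. In the strain comparison of non-pregnant rats, which listed 8 of the 9, 5 passed an adjusted p under 0.05 with a difference over 10 points, against 0.592% of all CpGs tested. The differences, BN minus CD, were 92.9 points for Dnm3, 68.8 for Coch, 50.5 for Fuca2, 50.1 for Galnt17 position 28713257 and -23.5 for Dmp1. They describe the rats that chose them. Of all CpGs that passed among non-pregnant rats, 1886 were higher in BN and 507 lower. With 10 reads asked only of the 6 rats compared, 8 of 12 listed CpGs passed in non-pregnant rats, against 0.461% of all CpGs, and 7 of 13 at P18, against 0.55%. The Dmp1 call was lost when any 1 of the 6 libraries was left out, with an adjusted p between 0.0843 and 0.198.

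At P18, 1842 of all CpGs tested passed as higher in BN and 402 as lower, together 0.555%. Of the listed CpGs tested there, 7 had been listed for strain in non-pregnant rats and not for strain at P18. Among these 7, 2 passed. Dnm3 differed by 91.8 points with an adjusted p of 1.43e-15, and Fuca2 by 62.4 points with an adjusted p of 3.45e-06. The other 5 did not pass. Cntn1 differed by -15.4 points, Galnt17 by 18.4 and 18.1 points and the first Camk2b CpG by 3.90 points, with adjusted p of 0.893 or more. Dmp1 had the opposite sign, with 8.33 points and an adjusted p of 0.958, but its CpG was also listed for pregnancy in CD, so the CD-P18 rats had helped to choose it. Coch, listed here too, differed by 94.9 points. Cacna1a differed by 34.9 points with an adjusted p of 0.0106, but without CD-P18 rat 3 the difference was 16.9 points with an adjusted p of 0.44, and without any 1 BN-P18 rat the adjusted p was 0.175 to 0.377. For Abca17 positions 13689454 and 13698243, listed at P18, non-pregnant rats could be tested only without CD-NP rat 3, which had under 10 reads. They then differed by 97.7 and 98.8 points, with adjusted p of 2.48e-13 and 1.62e-17, where 0.521% of all CpGs passed.

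The stages were read in different rats, so a change with pregnancy and differences between CD rats cannot be told apart. Between CD-NP and CD-P18, 1 of the 9 CpGs passed, against 0.0483% of all CpGs tested. This was Coch at -27.4 points, a CpG listed for this comparison, and without CD-NP rat 2 or CD-NP rat 3 the difference was -19.4 or -17.9 points with an adjusted p of 1. Cacna1a, at -32.1 points, had an adjusted p of 0.199 and was at -14 points without CD-P18 rat 3. Dmp1, listed for this comparison too, differed by -23.2 points with an adjusted p of 0.311, and Galnt17 position 28713257, which was not, by 26.2 points with an adjusted p of 1. In BN rats the moderated logistic test called 0 of the 9, against 0.000247% of all CpGs, with 1 at an unadjusted p under 0.05, and the Galnt17 CpG listed there differed by 19.9 points with an adjusted p of 0.990. The pregnancy difference did not pass between strains at any of the 9 CpGs, against 0.0052% of all CpGs passing. At an unadjusted p under 0.05 in the same moderated logistic test there were 4 of the 9, all listed from rats that enter this comparison, and 15473 of all 404069 CpGs.

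The large differences were single CpGs. Among CpGs with 10 reads in the 6 rats compared, 9 listed CpGs had differences of 49.5 points or more, and 2 to 9 other readings were covered within 1000 bases of each. No different CpG near any of the 9 had a difference of the same sign and at least 0.5 times the size. Next to Dnm3, the CpG 26 bases away was at 90% to 96% in the 4 groups. Next to Coch, CpGs at -13, 70, 86 and 110 bases were at 82.9% or above in every rat. Next to Fuca2, 7 CpGs from -23 to 102 bases differed by -8.03 to -1.26 points. At Abca17 position 13698243 the CpG 6 bases away was at 98% or above in all groups. Bdkrb2 was also read on the opposite strand of the same CpG, where the difference was 62.8 points against 63.1, while the CpG 16 bases away differed by -4.62 points. For Galnt17 position 28713257 the opposite strand gave a smaller difference, 23.2 points against 50.1. There the CD-NP rats ranged over 23.8% to 48.5% and the CD-P18 rats over 34.5% to 72%. The BN-NP rats ranged over 54.8% to 68% on that strand, so they overlapped the CD-P18 rats. The Cacna1a CpG was low in CD-P18 rat 3 on the opposite strand too, at 37.0%, and at the CpG 21 bases before it, at 39.4%.

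Among the 7 CpGs with smaller differences, 4 had a different CpG alike within 1000 bases. Around the Dmp1 CpG 4 of 14 other CpGs were alike, and the median difference of the 14 was -8.69 points. In the Cntn1 exon 0 of 6 were alike, with differences from -12.1 to 1.15 points. Over the longer stretch between the outer Galnt17 CpGs, 59 CpGs had a median strain difference of -0.48 points in non-pregnant rats, and 2 were more than 25 points higher in BN. Whether a base that differs between the strains lies at a listed CpG was not tested, and a T in the DNA and a converted C cannot be told apart in these reads.

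**Figure D4:**
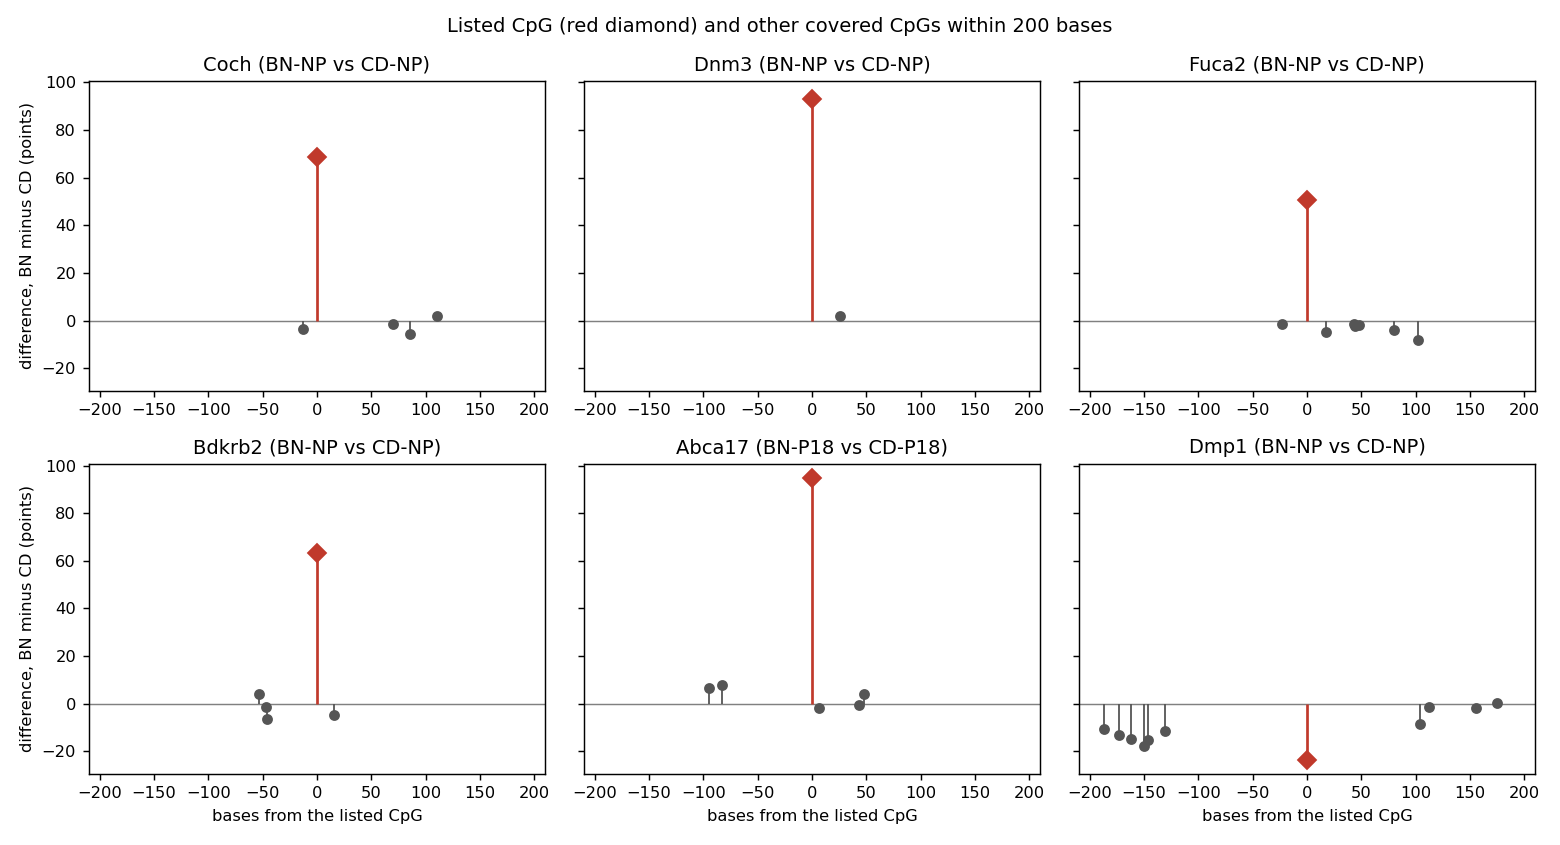
Difference in methylation, BN minus CD in percentage points (y axis), of 6 listed CpGs (red diamonds) and of other CpGs with 10 reads in the 6 rats compared (grey points) within 200 bases, by distance in bases (x axis), in non-pregnant rats or, for Abca17, at day 18. The listed CpGs of Coch, Dnm3, Fuca2, Bdkrb2 and Abca17 position 13698243 stand alone, while CpGs on one side of the Dmp1 CpG lie lower in BN as well; the opposite-strand reading of Bdkrb2 is not drawn.

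CD rats differ among themselves at several of these CpGs, which allowed RNA and methylation to be set side by side within a strain. In Coch the 2 CD rats with partial methylation, CD-NP rats 2 and 3, had 19.0 and 19.3 CPM, and the 4 CD rats at or near 0 had 12.7 to 17.9 CPM. The 6 BN rats, all methylated, had under 1 CPM. In Fuca2 the unmethylated CD-P18 rat 1 had 25.2 CPM and the CD-P18 rats at 44.4% and 59.1% had 24.9 and 24.8 CPM. In Bdkrb2 the unmethylated CD-NP rat 3 had the highest CD level, 4.82 CPM, but CD-P18 rat 1, next lowest at 10%, had the lowest CD level, 2.23 CPM. The CD rat with the most methylation had 2.55 CPM, and all BN rats were above 8 CPM with nearly full methylation.

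Of 12 relations over the 6 rats of a strain, 1 had an exact permutation p under 0.05. This was Galnt17 position 28713257 in CD rats, with a p of 0.0458 for Pearson's r and 0.103 for Spearman's rho and an adjusted p of 0.5. Its CD-NP and CD-P18 rats formed separate clusters in both measures, and the relation within stages was not tested. On the opposite strand of this CpG the methylation levels of CD-NP and CD-P18 rats overlapped. For Coch in CD rats r was 0.74 and rho 0.70, with an exact permutation p of 0.10 for r, and r was -0.22 without the 2 rats farthest from the median. For Fuca2 r was 0.24 and rho -0.20, and for Bdkrb2 r was -0.34 and rho -0.37, with exact permutation p of 0.765 and 0.524 for r. All adjusted p were 0.5 or more.

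**Figure D5:**
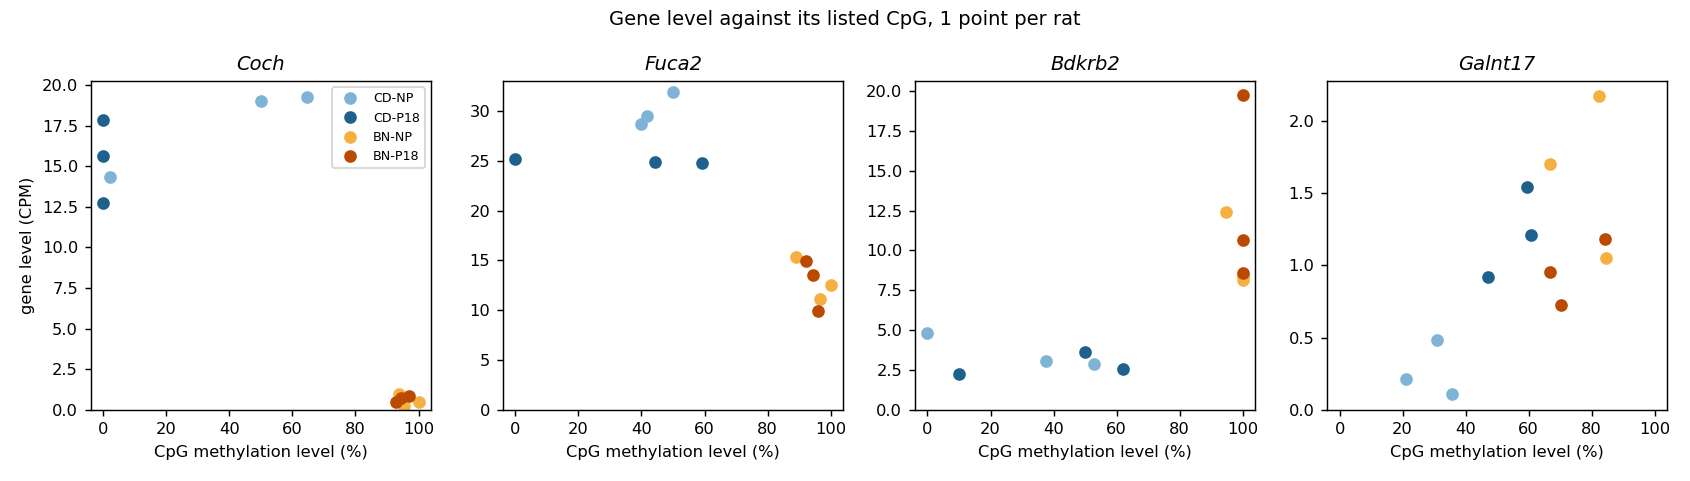
RNA level in CPM (y axis, from 0) against the methylation level in percent of the listed CpG (x axis), with 1 point per rat coloured by group, for Coch, Fuca2, Bdkrb2 and Galnt17 position 28713257. CD rats spread along the x axis for Coch, Fuca2 and Bdkrb2, and the 2 CD rats with partial methylation at Coch had the highest Coch levels, 19.0 and 19.3 CPM; BN-P18 points of Bdkrb2 rest on 7 to 9 reads.

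Relatives of the 10 genes were looked at through 10 lists of families and pathways. Gene names could be paired with the table's identifiers for 38 of 115 listed genes, and the pairing came from the study's own lists of differing genes, so the counts lean toward genes that differ and no list reached 80% named. Among all genes tested, 3.83% were higher and 4.55% lower in BN in non-pregnant rats, and 4.9% and 4.7% at P18. Because the named genes came from lists of differing genes, no count below was tested against these shares. Of the 8 ABCA transporters named, 4 were higher and 2 lower in BN among non-pregnant rats, members included, and likewise at P18. Abca1, which loads cholesterol onto apolipoprotein A-I, was lower in BN at both stages, with log2 fold changes of -0.47 ± 0.08 and -0.79 ± 0.08. In the kinin system Ace, the enzyme that degrades bradykinin, was lower in BN-NP than in CD-NP by -1.15 ± 0.14 on the log2 scale, and at P18 its log2 fold change was -0.08 ± 0.13 with an adjusted p of 0.782. Ace fell with pregnancy in CD by -0.56 ± 0.13 and its change differed between strains by 1.07 ± 0.19, with an adjusted p of 0.0281 in edgeR's quasi-likelihood test. All 3 named genes of the CaM kinase II list were lower in BN-NP, Camk2g by -0.56 ± 0.16 and the inhibitor Camk2n1 by -0.42 ± 0.10 on the log2 scale, and 0 of the 3 passed at P18.

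Among 4 named GalNAc transferases, Galnt13 was lower in BN at both stages, with log2 fold changes of -3.95 ± 0.51 and -4.32 ± 0.51, while Galnt7 and Galnt14 were higher in BN-NP by 0.43 ± 0.12 and 0.48 ± 0.14. Cntn3, the other contactin named, was higher in BN-NP by 1.87 ± 0.48, opposite in sign to Cntn1. Of the 3 genes that could be named among 9 in the dynamin list, 2 were higher in BN at each stage. These were Dnm3 and the endophilin gene Sh3gl2 in non-pregnant rats, and Sh3gl2 and Dnm1 at P18, the latter by 0.73 ± 0.15. Among calcium channel subunits Cacna2d2 was higher in BN at both stages, by 1.83 ± 0.27 and 1.55 ± 0.27, Cacnb2 was higher at P18 by 0.87 ± 0.17, and Cacnb1 was lower in BN-NP by -0.70 ± 0.20. Among the lysosomal glycosidases, at P18 Neu1 was higher in BN by 0.61 ± 0.09 and Manba lower by -0.71 ± 0.11. Fam20c, the kinase of secreted phosphoproteins such as Dmp1, rose with pregnancy in CD by 0.42 ± 0.07, and Matn2 of the cochlin-like list by 0.44 ± 0.13.

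Markers of 14 cell types could be checked for 16 of 59 genes. Slc34a1 of the proximal tubule averaged 1618 to 2716 CPM over the 4 groups, Podxl of podocytes 483 to 597 CPM and Slc12a3 of the distal convoluted tubule 626 to 848 CPM. The neuron marker Rbfox3 was lower in BN at both stages, with log2 fold changes of -3.20 and -3.44. Of 5 collecting duct markers 3 could be named, through the same lists of differing genes. All 3 were lower in BN-NP than in CD-NP, where 4.55% of all genes were, and 0 of 3 at P18. No bone and cartilage or Schwann cell marker was named. The part of these markers in the levels of the 10 genes was not tested. Of the 20 genes next to the 10 in the RefSeq order, 2 could be named. Ccnf beside Abca17 did not pass between strains at either stage, with log2 fold changes of -1.0 ± 0.59 and 0.56 ± 0.48, and Ier2 beside Cacna1a was higher in BN at P18 by 0.81 on the log2 scale and did not pass with pregnancy in CD, where its log2 fold change was -0.53 ± 0.18 with an adjusted p of 0.145.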

How the data were processed

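RNA-seq and RRBS were each run on kidney of the same 12 rats. Per the labels, RNA libraries were stranded total RNA depleted of ribosomal RNA. The authors trimmed reads with Trimmomatic, aligned them with STAR 2.5.2 and counted them with HTSeq 0.6.1 (versions from the submitters' processing notes); the strand setting is not given in the sources used here, so reads of overlapping genes on opposite strands may not be separated. The deposited values are raw counts per Ensembl gene, and summary lines without a gene, 72.5% to 75.6% of each column, were left out. For RRBS the authors used Trim Galore 0.4.5, removal of duplicates by the N6 tag, Bismark and methylKit 1.16.1 on Rnor_6.0. The deposited RRBS lists give, for each CpG with 5 reads or more, its coverage as a read count and the C and T shares in percent. Methylated reads were recovered by rounding.

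Counts were fitted with edgeR 4.0.16 over all 12 libraries (R 4.3.3, TMM scaling, filterByExpr, quasi-likelihood test), with DESeq2 1.42.0 as an alternative. CpGs with 10 reads in all 12 libraries entered a logistic model with the dispersion moderated by limma 3.58.1. p-values were adjusted by Benjamini-Hochberg over all genes or CpGs tested. Both scripts were tested on simulated data. Intervals (95%, Wilson) and limits from a count of 0 (3 reads) cover counting error only. log2 CPM used a prior count of 2.

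The members, the lists and the tests were chosen with earlier results of these data known. All 10 members are named, with the genes of each list past the threshold in any comparison, at most 3 per list by smallest p. A gene that this rule names is not reported here. A listed CpG was found by its position or by its pooled difference, which matched 1 CpG on its chromosome for all 16, within 0.0006 points. Symbols of other genes were paired by log2 fold change and mean level within 0.01 with the study's gene sheets, whose columns of comparison results were used for nothing else. The labels give same-numbered rats of different groups no link beyond the number.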

Additional observations from a re-analysis of the deposited data

Results flagged for a closer look

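The pregnancy change of Galnt17 differed between the strains by -2.90 on the log2 scale for BN minus CD. The adjusted p was 0.0925 in edgeR's quasi-likelihood test. The CD-NP and BN-NP rats that chose the gene enter this comparison, so it is not independent of the choice. Galnt17 rose from 1 to 5 reads per library in CD-NP to 9 to 18 in CD-P18, and went from 10 to 20 reads in BN-NP to 8 to 11 in BN-P18. The call was lost when any of 10 of the 12 libraries was left out.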

How the results depend on the processing

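Depth limits Coch and Dmp1 in BN, Abca17 in CD and Galnt17 in CD-NP, which rest on under 10 reads per library, and 7 of the 16 CpGs, which lack 10 reads in some rat. Requiring 1 CPM in all libraries left 5 of the 10 genes to test and gave 4 calls for strain in NP, 2 for strain at P18, 1 for pregnancy in CD and 0 for the interaction. Requiring 20 reads in all libraries left 1 CpG and 0 calls in the NP, P18 and CD pregnancy comparisons. Requiring 10 reads only in the libraries compared raised the calls to 8 of 12 CpGs for strain in NP and 7 of 13 at P18. Without overdispersion, pregnancy in CD gave 3 calls and the interaction 1. With a prior count of 0.5, 0 of 12 relations had an exact permutation p under 0.05. A window of 200 bases left 3 CpGs with a like neighbour in place of 4.

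With 1 library left out, the genes called numbered 8 to 9 for strain in NP, 6 to 7 at P18, 0 to 2 for pregnancy in CD, 0 in BN and 0 to 1 for the interaction. The CpGs called numbered 4 to 6, 3 to 4, 0 to 2, 0 and 0 to 1. Same-numbered deviations correlated from -0.188 to 0.27 for RNA and from -0.0136 to 0.0216 for methylation, highest for the own number in 8 and 7 of 18 pairs. Whether same-numbered rats shared a batch was not tested. The replicate block kept 9, 6, 2, 0 and 1 genes called, and gave 4, 3, 1, 0 and 0 CpGs, losing Dmp1 in NP and Cacna1a at P18. Of all genes it called 286 for pregnancy in BN and 235 for the interaction, against 199 and 134, DESeq2 called 317 for the interaction, and no filter called 352 and 329. Of 217 other values under settings other than leaving a library out, 210 kept their direction and side of the threshold and none changed sign.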
